A study of Homo sapiens with 20 samples.

Results

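The 42 genes described here encode proteins that carry a cell through G2 and mitosis, and they were taken from the table by gene name. They are 42 of 36601 genes in the table and 42 of 12149 that passed the filter on low counts, so no member was lost to it. Their 3' ends were counted in 20 libraries of the established breast cancer line MDA-MB-231 that form 5 groups of 4. In every group, wells of 30000 cells were kept 24 h at 37 °C before treatment, and each RNA sample pooled 2 wells. Untreated cells had neither particles nor laser. The other 4 groups had 4 h with 0.1 mg/ml nanoparticles in 200 µl of medium: 1 group had no laser (nanoparticles alone), and 3 had 10 min under an 808 nm laser with its temperature controlled at 46, 50 or 54 °C. Laser light without particles was not analysed here, so light and heat cannot be told apart, and no source used here gives the time from laser to lysis. The labels do not say that replicates were separate cultures, so the p-values reflect how these samples spread, and that spread may be technical.

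Cyclin B and the kinase CDK1 drive entry into mitosis. The kinases PLK1 and the Aurora proteins then build the spindle, and the spindle checkpoint holds the anaphase-promoting complex, through its activator CDC20, until every chromosome is attached. Most of these genes are transcribed late in the cycle, under promoters known for a CHR element (cell cycle genes homology region) and CCAAT boxes, and they are widely used as markers of cells in G2 and mitosis. In these bulk samples fewer cells in that phase and less mRNA per cell cannot be told apart.

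Promoter sequence is shown for 5 genes on which the results below turn: CDC20, the only member called between treatments in the model without replicate pairs; PLK1 and CKS2, called in opposite directions at 46 °C once replicate pairs were modelled; and CCNB1 and KIF20A, which stand for small and large differences between replicates. CKS2 and KIF20A were chosen after their values were seen. Each line is the 120 bases before the start that RefSeq gives on GRCh38.p14, all on the + strand, 5′ to 3′, with capitals marking the CHR and the CCAAT box. The CHR letters searched were TTTGAA, which reads as TTCAAA on the other strand, and also the palindrome TTCGAA. The CCAAT box was searched as CCAAT and, for the other strand, as ATTGG. CDC20 is chr1:43358861-43358980, PLK1 chr16:23678769-23678888, CKS2 chr9:89311075-89311194, CCNB1 chr5:69167030-69167149 and KIF20A chr5:138178992-138179111.
CDC20: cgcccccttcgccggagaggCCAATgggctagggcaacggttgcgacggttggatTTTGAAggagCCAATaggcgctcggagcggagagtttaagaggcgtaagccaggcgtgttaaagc
PLK1: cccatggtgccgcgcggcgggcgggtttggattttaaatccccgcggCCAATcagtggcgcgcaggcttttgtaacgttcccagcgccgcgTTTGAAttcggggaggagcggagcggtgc
CKS2: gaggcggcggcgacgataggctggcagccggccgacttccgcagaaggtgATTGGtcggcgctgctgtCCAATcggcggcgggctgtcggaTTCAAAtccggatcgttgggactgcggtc
CCNB1: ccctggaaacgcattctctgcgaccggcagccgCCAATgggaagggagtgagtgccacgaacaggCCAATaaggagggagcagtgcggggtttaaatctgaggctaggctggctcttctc
KIF20A: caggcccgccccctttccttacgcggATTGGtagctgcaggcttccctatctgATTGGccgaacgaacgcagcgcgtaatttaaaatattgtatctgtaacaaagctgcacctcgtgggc

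CDC20 showed a CHR match 65 bases before the start between CCAAT boxes at 100 and 55 bases. In PLK1 a CCAAT box lay 73 bases and a CHR match 29 bases before the start. In CKS2 the CHR match, read on the other strand as TTCAAA, also lay 29 bases before the start, downstream of boxes at 70 and 52 bases. In CCNB1 and KIF20A only boxes matched the letters searched, at 87 and 55 bases in CCNB1 and at 94 and 67 bases in KIF20A. RefSeq promoters of 250 bases before and 50 after the start were matched for 34 of the 42 members. AURKA, TTK, RACGAP1, BUB3, TPX2, BIRC5, UBE2C and FOXM1 were not matched. Both strands were searched, and motifs were counted separately even where matches shared bases. A CHR match stood in 26 of the 34 (76.5%) and in 19.5% of the 27305 genes with a promoter of the same length. A gene with several promoters counted if any of them matched. A CCAAT box stood in 29 (85.3%) against 39.7%, and both stood in 23 (67.6%) against 7.85%. The heat shock element letters GAANNTTC stood in 2 members, CCNB2 and TOP2A (5.9%), against 8.21%. These are letter matches in a window, not measured binding. A CHR of letters other than those searched would be missed, so a promoter without a match is not shown to lack the element.

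Library totals ran from 2401180 to 7710977 counts, with the highest group mean at 54 °C (6769582) and the lowest at 46 °C (2872173). Every member had between 21 and 13817 counts in every library. VIM and CD44, markers of a mesenchymal breast line, had means of 1740 and 685 CPM (library-scaled counts, TMM method), while the hormone receptor gene ESR1 and the epithelial genes FOXA1 and CDH1 stayed at or below 3.88 CPM in every library. The luminal list of 10 genes summed to 120 to 237 CPM, with GATA3 at up to 27.4 and EPCAM at up to 20.2 CPM, and its KRT19 had 50.2 to 148 CPM. Lists of other cell types summed to 3.37 to 23 CPM for macrophages and monocytes, 1.07 to 15.5 CPM for fibroblasts, and at most 0.993 and 1.4 CPM for lymphocytes and blood. The summed level of 4 heat shock genes was 4160 to 6210 CPM at 46 °C against 308 to 479 CPM in all other libraries. Mitochondrial mRNAs took 4.5% to 5.6% of counts at 46 °C, 14.6% to 19.1% at 50 °C, 12.7% to 14.7% at 54 °C and 11.1% to 12.5% with nanoparticles alone. Nuclear long noncoding RNAs summed to 3230 to 5160 CPM in the lasered groups and 1470 to 3250 CPM in the other 2.

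Across treatments the mitotic genes stayed near level as a set, and CDC20 was the single member called in the model without a term for replicate pairs. PLK1, AURKA and CKS2 were called as well when that term was added. The summed level of the 42 genes was 7720 ± 1200 CPM (SD, n = 4) without treatment and 7659 ± 1290 CPM with particles only. It was 7485 ± 962, 7307 ± 1430 and 7749 ± 1620 CPM under the laser at 46, 50 and 54 °C. The group means thus differed by less than the SD within any group, but that SD contains the difference between replicates. Over the 10 libraries of replicates 1 and 2 the SD was 419 CPM, and over those of 3 and 4 it was 311 CPM. The wider SD therefore does not show that the group means were alike. Within every group the libraries of replicates 1 and 2 stood above those of replicates 3 and 4, as the plot of summed levels by library shows.

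**Figure D1:**
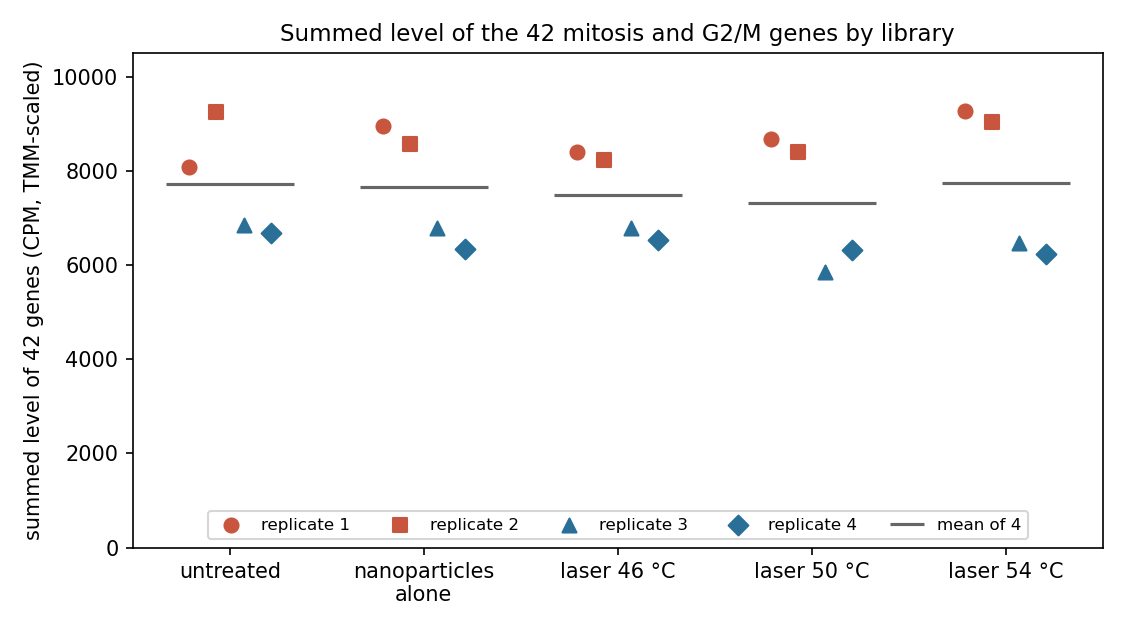
Summed CPM of the 42 genes (y axis) in each of 20 libraries by group (x axis), with symbols for the replicate number and a grey line for the mean of 4. Group means run from 7307 to 7749 CPM, while replicates 1 and 2 lie between 8089 and 9262 and replicates 3 and 4 between 5850 and 6857 in the same groups.

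A member was called at an adjusted p under 0.05 from edgeR's quasi-likelihood test, adjusted over all 12149 genes. For nanoparticles alone against untreated cells, which asks what the particles did without light, 0 members were higher and 0 lower, against 0% and 0% of all genes. No member reached an unadjusted p under 0.05 there. The median log2 fold change of the members was 0.025, against −0.0038 over all genes, and single members ran from −0.51 to 0.35. The smallest p-values were those of FOXM1, the transcription factor of G2/M genes (−0.40, 95% interval −0.92 to 0.13), TPX2, which activates AURKA on the spindle (0.20, −0.091 to 0.50), and HMMR, a spindle assembly protein (−0.51, −1.41 to 0.39). The HMMR value rested on single libraries, at −1.05 without replicate 2 of nanoparticles alone and −0.14 without untreated replicate 4.

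At 46 °C against nanoparticles alone, 0 members were higher and 1 lower, against 0.617% and 0.346% of all genes. At 50 °C the counts were 0 and 1, against 0.527% and 0.691%, and at 54 °C 0 and 0, against 0.0741% and 0.0494%. Member medians were −0.045, −0.088 and 0.0085 at the 3 temperatures, beside 0.011, 0.018 and 0.0084 over all genes. Between temperatures the counts were 0 and 0 for 50 against 46 °C (0.584% and 0.609% of all genes), 1 higher and 0 lower for 54 against 50 °C (0.0576% and 0.14%), and 1 higher and 0 lower for 54 against 46 °C (0.239% and 0.395%), with member medians of −0.085, 0.052 and 0.029. With 0 or 1 of 42 called, nothing about the set as a whole is read from these counts. The 3 comparisons against nanoparticles alone share those 4 libraries, and the others share laser groups, so their values are set side by side and not correlated.

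**Figure D2:**
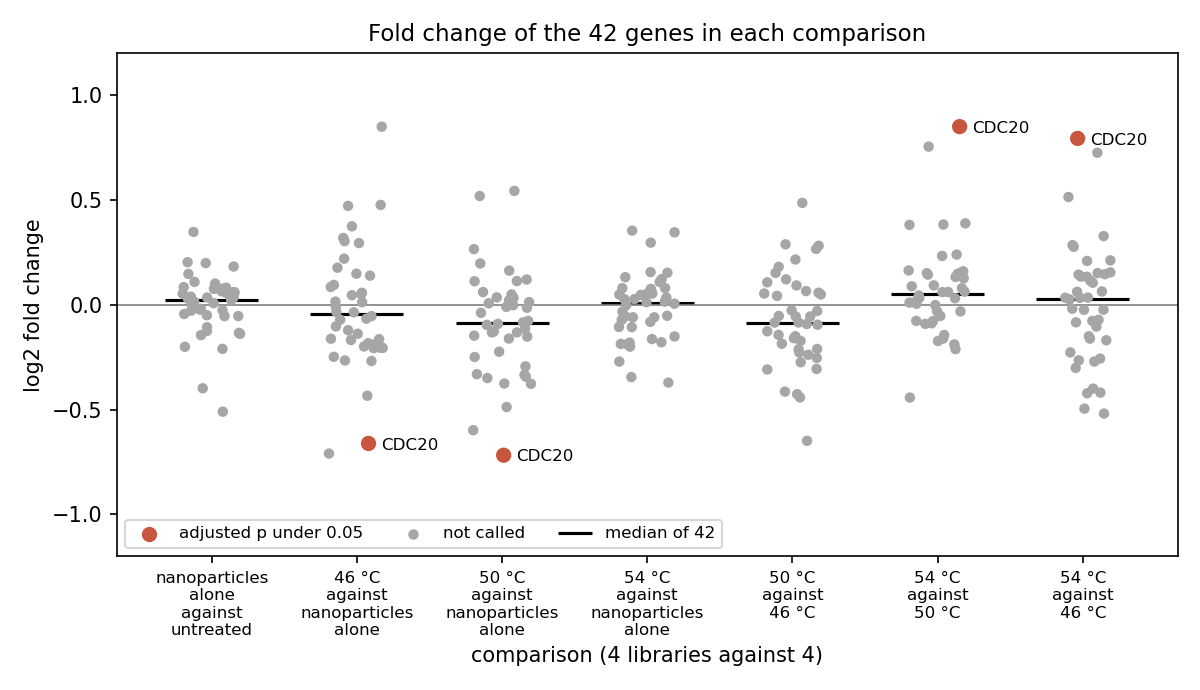
Log2 fold change of each of the 42 genes (y axis) in 7 comparisons of 4 libraries against 4 (x axis), with red points for adjusted p under 0.05 and a black line at the median. The medians lie between −0.088 and 0.052, and CDC20 is the red point in 4 comparisons.

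CDC20 (chr1:43358955-43363203 on GRCh38), the activator that lets the anaphase-promoting complex mark securin and cyclin B for destruction, carried the CHR match shown above. Its level was 115, 119, 100 and 82.8 CPM in the untreated libraries 1 to 4 and 103, 122, 115 and 110 CPM with nanoparticles alone. It was 63.8, 64.4, 69.7 and 85.7 CPM at 46 °C and 82.3, 68.3, 60.2 and 62 CPM at 50 °C. At 54 °C it was 121, 121, 111 and 139 CPM. All 8 libraries at 46 and 50 °C lay below all 4 with nanoparticles alone, and all 4 at 54 °C lay above those 8 and overlapped nanoparticles alone. Of all 12149 genes, 398 at 46 °C and 502 at 50 °C lay wholly below nanoparticles alone. At 54 °C, 326 lay wholly above 46 °C and 301 wholly above 50 °C.

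The log2 fold change of CDC20 against nanoparticles alone was −0.66 ± 0.16 at 46 °C (SE, n = 4 against 4, adjusted p = 0.0238) and −0.72 ± 0.16 at 50 °C (adjusted p = 0.0107). From 50 to 54 °C it rose by 0.85 ± 0.16 (adjusted p = 0.00206), and from 46 to 54 °C by 0.79 ± 0.16 (adjusted p = 0.00324). The 46 °C call held in 2 of 8 fits that each left out 1 library: without replicate 1, 2 or 3 at 46 °C or replicate 2, 3 or 4 of nanoparticles alone the adjusted p was 0.116, 0.114, 0.0621, 0.0986, 0.0534 and 0.0556. At 50 °C the call was lost only without replicate 2 of nanoparticles alone (0.0523), and both calls at 54 °C held in 8 of 8. Groups explained 83.3% of its variance in log2 CPM over the 20 libraries and replicate pairs 0.817%, beside medians of 23.8% and 5.02% over all genes. Mitochondrial mRNA shares moved in opposite directions at 46 and 50 °C, while CDC20 was low in both, and the heat shock genes were high only in the 46 °C libraries; their part in the result was not tested.

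PLK1 (chr16:23677656-23690367), the kinase of centrosome maturation and checkpoint exit, had 129, 136, 80.7 and 106 CPM in untreated cells and 142, 160, 76.9 and 139 CPM with nanoparticles alone. At 46 °C it had 79.4, 94.9, 60.7 and 81.7 CPM, at 50 °C 141, 129, 93.9 and 80.8 CPM, and at 54 °C 162, 141, 108 and 113 CPM. Replicate 3 was the lowest library in 4 of the 5 groups. At 46 °C all 4 lay below all 4 at 54 °C, as for 326 of all 12149 genes, but overlapped nanoparticles alone. Its log2 fold change at 46 °C was −0.71 ± 0.20 (adjusted p = 0.085), and it passed the threshold without replicate 3 of nanoparticles alone (−0.89, adjusted p = 0.00531). From 46 to 54 °C it was 0.72 ± 0.20 (adjusted p = 0.0938). With a term for replicates 1 and 2 against 3 and 4, PLK1 was called in both, at −0.70 ± 0.15 (0.00217) and 0.71 ± 0.15 (0.00198).

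AURKA (chr20:56369389-56392337), the Aurora kinase of the spindle poles, had 349, 309, 246 and 242 CPM in untreated cells and 372, 351, 265 and 221 CPM with nanoparticles alone. It had 236, 231, 233 and 195 CPM at 46 °C, 249, 240, 172 and 201 CPM at 50 °C, and 371, 305, 237 and 209 CPM at 54 °C. In the 3 other groups replicates 1 and 2 exceeded 300 CPM, while the highest library at 46 or 50 °C was replicate 1 at 50 °C, and the groups overlapped through replicate 4 of nanoparticles alone. The log2 fold change was −0.43 ± 0.16 at 46 °C (adjusted p = 0.254) and −0.49 ± 0.16 at 50 °C (adjusted p = 0.153). With the term for replicate pairs AURKA was called in both, at −0.40 ± 0.11 (0.0321) and −0.47 ± 0.11 (0.00561). AURKB, its relative at the centromere, had −0.072 at 46 °C and 0.035 at 50 °C, and its groups overlapped in all 7 comparisons.

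BUB1B (chr15:40161023-40221136), which encodes the checkpoint protein BubR1, was chosen after its values were seen. It had 46.1, 49.2, 30.1 and 47.6 CPM in untreated cells and 45.1, 36.3, 42.9 and 43.7 CPM with nanoparticles alone. It had 42, 41.8, 52.5 and 37.9 CPM at 46 °C, 23.7, 35.2, 24.7 and 27.2 CPM at 50 °C, and 55.5, 47.1, 31.9 and 52.4 CPM at 54 °C. All 4 libraries at 50 °C lay below those at 46 °C and with nanoparticles alone, but overlapped the untreated ones and those at 54 °C. Of all 12149 genes, 414 lay wholly below 46 °C at 50 °C, and 502 wholly below nanoparticles alone. The log2 fold change at 50 °C was −0.60 ± 0.23 against nanoparticles alone (adjusted p = 0.244), −0.65 ± 0.23 against 46 °C (0.204), and 0.75 ± 0.23 from 50 to 54 °C (0.284).

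UBE2C, the ubiquitin-conjugating enzyme that works with the anaphase-promoting complex, had 357, 426, 343 and 231 CPM in untreated cells and 337, 377, 324 and 355 CPM with nanoparticles alone. It had 302, 271, 282 and 318 CPM at 46 °C, 320, 287, 236 and 263 CPM at 50 °C, and 348, 332, 301 and 243 CPM at 54 °C. Libraries at 46 and 50 °C lay below those with nanoparticles alone but not below the lowest untreated one, with log2 fold changes of −0.25 ± 0.14 (adjusted p = 0.513) and −0.33 ± 0.14 (0.283). Such a position below nanoparticles alone was shared by 398 of all 12149 genes at 46 °C and 502 at 50 °C. The 6 checkpoint and anaphase-promoting complex members, CDC20, UBE2C, BUB1B, BUB3, MAD2L1 and PTTG1, all had negative log2 fold changes at 50 °C against nanoparticles alone (−0.72 to −0.13, median −0.25), with 1 called. All 6 were positive from 50 to 54 °C (0.060 to 0.85, median 0.16), again with 1 called. Of all 12149 genes, 5870 were negative in the first comparison and 5991 positive in the second. Both comparisons use the same libraries at 50 °C, so opposite signs in them are not independent. The 6 genes were not tested as a set.

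CKS2, a small subunit that binds CDK1, had its highest mean at 46 °C (204.7 CPM); it was chosen after its values were seen. It had 188, 193, 99.7 and 118 CPM in untreated cells, 158, 168, 125 and 137 CPM with nanoparticles alone, and 251, 223, 162 and 184 CPM at 46 °C. At 50 °C it had 153, 174, 126 and 157 CPM, and at 54 °C 166, 177, 113 and 156 CPM. The highest library was at 46 °C and the groups overlapped, with a log2 fold change against nanoparticles alone of 0.48 ± 0.17 (adjusted p = 0.232). With the term for replicate pairs CKS2 was called there, at 0.47 ± 0.13 (0.0322).

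**Figure D3:**
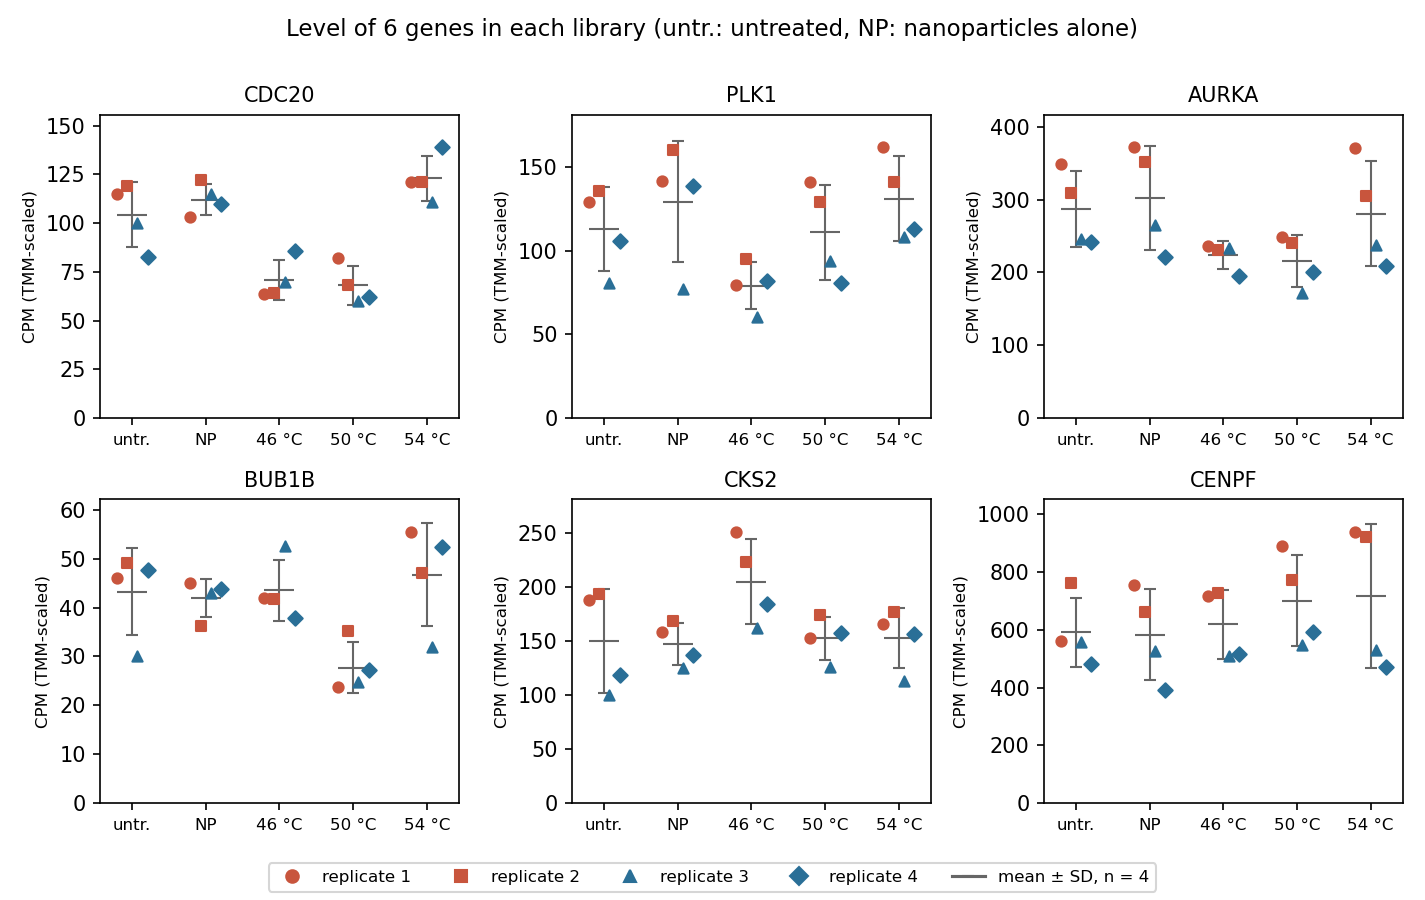
CPM (y axis) of 6 genes in each library by group (x axis), with symbols for the replicate number and bars for mean ± SD (n = 4). CDC20 is low at 46 and 50 °C in both replicate pairs, whereas in CENPF replicates 1 and 2 stand above 3 and 4 in all 5 groups.

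The cyclin and kinase at the centre of mitotic entry were not called in any comparison. CDK1 had 207, 219, 168 and 165 CPM in untreated cells, 219, 182, 183 and 150 CPM with nanoparticles alone, 228, 260, 202 and 164 CPM at 46 °C, 251, 213, 113 and 160 CPM at 50 °C, and 200, 195, 154 and 144 CPM at 54 °C. CCNB1, cyclin B1, had 219, 269, 232 and 170 CPM in untreated cells, 272, 220, 192 and 239 CPM with nanoparticles alone, 314, 236, 230 and 206 CPM at 46 °C, 237, 256, 192 and 183 CPM at 50 °C, and 249, 224, 216 and 200 CPM at 54 °C. All groups overlapped in both genes. Against nanoparticles alone CDK1 had log2 fold changes of 0.22 ± 0.18, 0.0067 ± 0.18 and −0.082 ± 0.18 at 46, 50 and 54 °C. CCNB1 had 0.094 ± 0.15, −0.092 ± 0.14 and −0.056 ± 0.14, with intervals inside −0.38 to 0.39.

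TOP2A, the topoisomerase that untangles chromosomes, had 1500, 1900, 1270 and 1340 CPM in untreated cells, 1700, 1550, 1180 and 1020 CPM with nanoparticles alone, 1510, 1350, 1240 and 1160 CPM at 46 °C, 1450, 1390, 1040 and 1270 CPM at 50 °C, and 1830, 1750, 1100 and 1080 CPM at 54 °C. CENPF, a kinetochore protein of G2, had 563, 762, 559 and 482 CPM in untreated cells, 754, 661, 527 and 392 CPM with nanoparticles alone, 718, 728, 511 and 518 CPM at 46 °C, 890, 773, 548 and 594 CPM at 50 °C, and 940, 923, 531 and 472 CPM at 54 °C. In both genes replicates 1 and 2 exceeded replicates 3 and 4 in each group, and the groups overlapped. Against nanoparticles alone TOP2A had log2 fold changes of −0.054, −0.085 and 0.079 (SE 0.20), and CENPF 0.084, 0.26 and 0.30 (SE 0.26).

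Besides CDC20, no member was called between treatments without the term for replicate pairs, and besides PLK1, AURKA and CKS2 none was added by it. The 8 members around CDK1 had role medians within −0.058 and 0.055 over the 7 comparisons, the 6 mitotic kinases within −0.16 and 0.22, the 6 centromere, kinetochore and passenger proteins within −0.19 and 0.042, and the 11 motors and microtubule proteins within −0.10 and 0.042. Medians of the 6 checkpoint and anaphase-promoting complex members lay within −0.248 and 0.156. Those of the 3 cytokinesis members lay within −0.249 and 0.0605, and those of TOP2A and CDCA3 within −0.23 and 0.276. For 54 °C against nanoparticles alone, where none was called, the smallest p-values were those of KIF4A, a chromosome-bound kinesin (0.35, 95% interval −0.028 to 0.72), UBE2C (−0.19, −0.46 to 0.086) and KIF23, a kinesin of the midbody (−0.18, −0.50 to 0.14). For 50 against 46 °C they were those of BUB1B, CKS2 (−0.43 ± 0.17, adjusted p = 0.309) and PLK1 (0.49 ± 0.20, 0.329). A call that was missed does not show that levels were alike. The median SE was 0.20 on the log2 scale, and between 38 and 40 of 42 intervals stayed inside a 2-fold change either way in 6 of the comparisons, with 37 of 42 for 54 against 46 °C. Inside a 1.5-fold change there were 16 to 27.

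The larger difference among these genes lay between replicates. Replicates 3 and 4 were set against replicates 1 and 2 within groups, and the labels give no batch. The division comes from an earlier look at these data, and the members were also chosen with earlier results of these data known. The p-values and the shares of all genes beside them thus describe these libraries and are no independent evidence. Of 42 members, 35 were lower in replicates 3 and 4 and 0 were higher, against 4.65% and 4.17% of all genes. The other 7, FOXM1, AURKB, BUB1B, BUB3, CDC20, KIF23 and RACGAP1, were not called. All 42 had negative log2 fold changes, from −1.005 to −0.012, with a median of −0.46 against −0.00058 over all genes. In 13 of 42 members both of replicates 1 and 2 exceeded both of 3 and 4 in all 5 groups, against 1.19% of all genes: CCNA2, NEK2, BUB1, MAD2L1, PTTG1, CENPF, NUF2, KIF20A, KIF2C, KIF4A, NUSAP1, ANLN and TOP2A.

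The summed level was 8683 ± 419 CPM over the 10 libraries of replicates 1 and 2 and 6485 ± 311 CPM over the 10 of replicates 3 and 4. The ratio of the pair means was 1.28 without treatment and 1.33 with particles only, and 1.25, 1.4 and 1.44 under the laser at 46, 50 and 54 °C. In untreated cells, which had neither particles nor laser, the log2 difference of the pair means was below 0 for 37 of 42 members and for 6200 of all 12149 genes, a count of signs with no test. Replicate pairs explained a median of 47.1% of a member's variance in log2 CPM and groups 12.4%, against medians of 5.02% and 23.8% over all genes. A split into 5 groups takes up more variance without any effect than a split into pairs. The shares were not adjusted for this, so those of groups and of pairs are not on the same scale. No member's laser effect was called different between the pairs: 0 members passed at 46, 50 or 54 °C (smallest adjusted p 0.871, 1 and 1), with 2, 4 and 1 members at an unadjusted p under 0.05 beside 660, 531 and 521 of all 12149 genes.

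**Figure D4:**
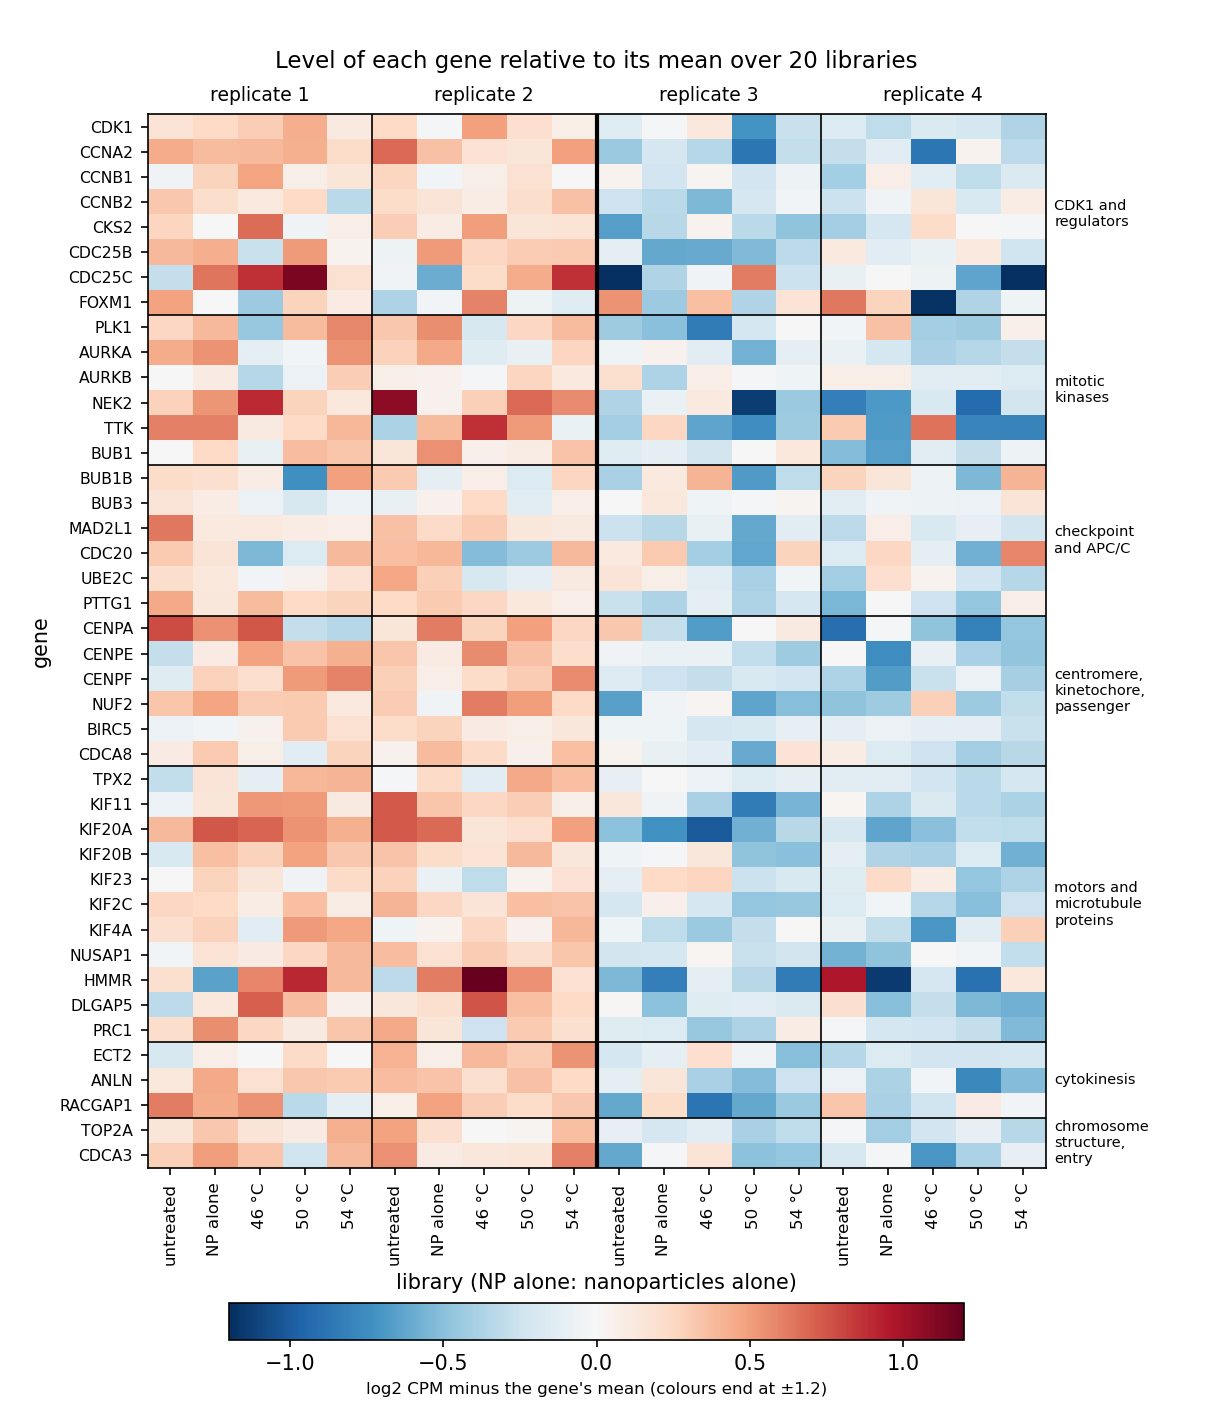
Log2 CPM of each of the 42 genes (rows, by role) in each of 20 libraries (columns, by replicate number) relative to the gene's mean, in red above and blue below. The 10 columns of replicates 1 and 2 are mainly red and the 10 of replicates 3 and 4 mainly blue in every treatment, and CDC20 instead changes between treatments.

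KIF20A, a kinesin of late mitosis, had the largest difference of all members (chosen after its values were seen). Its replicates 1 and 2 had 46.3 and 58.8 CPM without treatment, 59.1 and 56.6 CPM with particles only, and 57.3 and 39.1, 51.5 and 40.7, and 47.6 and 49.8 CPM under the laser at 46, 50 and 54 °C. Its replicates 3 and 4 had 25.1 and 31, 21.4 and 22.8, 17.6 and 24.9, 23.7 and 28.9, and 28.1 and 28.6 CPM in the same order. The pairs did not overlap at all, and the log2 difference was −1.005 ± 0.15 (adjusted p = 2.13e-07), a 2.01-fold lower level. Of the 11 motors and microtubule proteins 10 were lower, with KIF23 the exception (−0.15 ± 0.093, adjusted p = 0.403). HMMR, which had 10.3 to 56.4 CPM, differed by −0.74 ± 0.21 (adjusted p = 0.0143) and the other 8 by −0.59 to −0.30.

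Around CDK1, 7 of 8 members were lower. CCNA2, cyclin A2 of S and G2 phase, had 111 to 160 CPM in replicates 1 and 2 and 54.8 to 103 CPM in 3 and 4, a log2 difference of −0.72 ± 0.099 (adjusted p = 3.64e-08). CDC25C, the phosphatase that activates CDK1, differed by −0.67 ± 0.22 (0.0413), CDC25B by −0.47 ± 0.11 (0.00218), CDK1 by −0.44 ± 0.079 (2.07e-05), CKS2 by −0.42 ± 0.082 (0.000104), CCNB2 by −0.31 ± 0.10 (0.0313) and CCNB1 by −0.28 ± 0.074 (0.00803). FOXM1, known as an activator of many of the others, had −0.061 ± 0.16 (0.902). Its pairs overlapped, with means of 42.8 and 41.96 CPM.

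Among the kinases, NEK2, which separates centrosomes, had 25.4 to 51.7 CPM in replicates 1 and 2 and 11.1 to 26.6 CPM in 3 and 4, with a difference of −0.95 ± 0.18 (adjusted p = 6.12e-05). TTK, the checkpoint kinase Mps1, differed by −0.64 ± 0.17 (0.00586), PLK1 by −0.47 ± 0.095 (0.000185), AURKA by −0.43 ± 0.071 (4.64e-06) and BUB1 by −0.40 ± 0.10 (0.00404). AURKB had −0.094 ± 0.080 (0.589). The Aurora kinases thus stood on different sides of the threshold; the difference between them was not tested.

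In the checkpoint and anaphase-promoting complex group 3 of 6 were lower, with a median of −0.16; roles were not tested against each other. PTTG1, securin, had 405 to 526 CPM in replicates 1 and 2 and 262 to 405 CPM in 3 and 4, a difference of −0.49 ± 0.067 (adjusted p = 2.77e-08), and MAD2L1 differed by −0.42 ± 0.097 (0.00138) and UBE2C by −0.21 ± 0.071 (0.0448). CDC20 had −0.068 ± 0.098 (0.795), with means of 97.97 and 93.44 CPM, BUB1B −0.11 ± 0.14 (0.752) and BUB3 −0.012 ± 0.073 (0.961).

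All 6 centromere, kinetochore and passenger genes were lower in replicates 3 and 4. NUF2, of the complex that grips microtubules, differed by −0.64 ± 0.096 (adjusted p = 4.74e-07), CENPA, the centromeric histone, by −0.61 ± 0.17 (0.00932), CENPF by −0.58 ± 0.064 (3.06e-11) and CENPE, a kinetochore kinesin, by −0.53 ± 0.080 (1.27e-06). The passenger proteins CDCA8 (borealin) and BIRC5 (survivin) had −0.34 ± 0.081 (0.0021) and −0.25 ± 0.070 (0.00982). In cytokinesis, ANLN, which binds the contractile ring, differed by −0.57 ± 0.077 (1.67e-08) and ECT2 by −0.38 ± 0.097 (0.0046), while RACGAP1, with 2332 counts in all, had −0.48 ± 0.17 (0.07). TOP2A differed by −0.44 ± 0.055 (2.05e-09) and CDCA3, which promotes mitotic entry, by −0.55 ± 0.13 (0.00262).

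**Figure D5:**
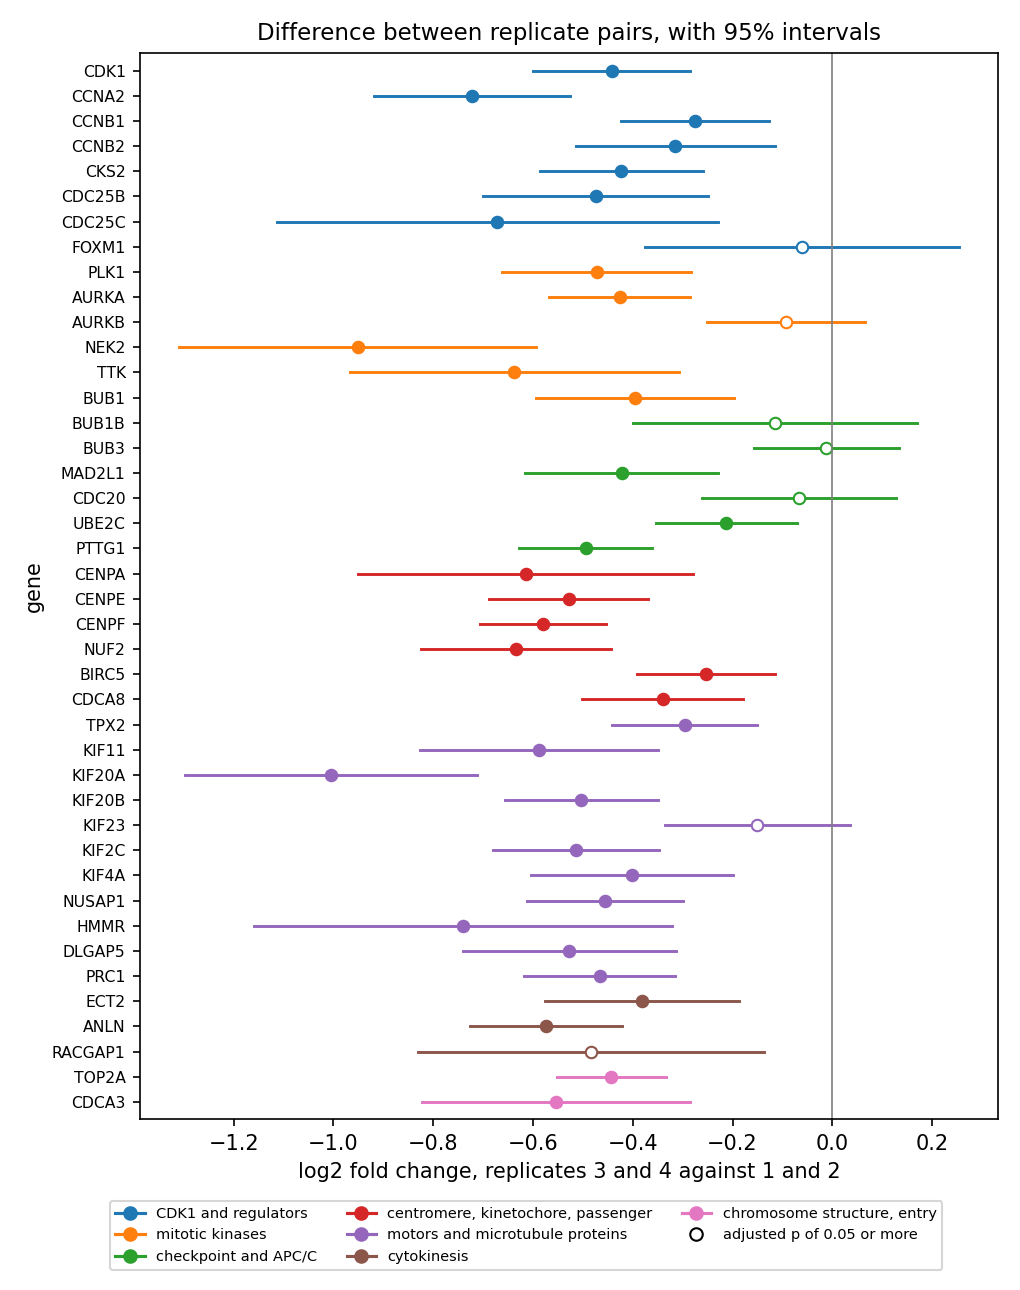
Log2 fold change of each gene (y axis, by role) between replicates 3 and 4 and replicates 1 and 2 (x axis), with 95% intervals; open circles were not called. All 42 points lie left of 0, from −1.005 for KIF20A to −0.012 for BUB3.

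The difference between replicates was set beside the promoter letters as a description, with no test. The 26 members with a CHR match had a median log2 difference of −0.46 (−0.74 to −0.068) and the 8 without one −0.52 (−1.005 to −0.094), with CDC20 at the smaller end of the first and KIF20A at the larger end of the second. A CHR match stood in 23 of the 30 lower members with a promoter sequence and in 3 of the 4 not called.

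Totals were 2944517 to 7710977 counts in replicates 1 and 2 and 2401180 to 6304912 in 3 and 4, and after every library was thinned to the smallest total 33 members were lower, with a median of −0.45. Without replicate 1, 2, 3 or 4 in turn, 28, 23, 24 and 28 members were lower and 0 higher. S phase genes, chosen as the neighbouring cycle phase, summed to 3330 to 3730 CPM in replicates 1 and 2 and 2620 to 3230 CPM in 3 and 4, with 11 of 46 lower and 0 higher. Of 22 arrest and G1 genes 2 were higher, CCND1 (0.59, adjusted p = 5.15e-11) and CCND2 (1.98, 0.0115), and 2 lower, CDKN2C (−0.75, 0.0159) and CCNG2 (−1.01, 0.0447), with a list median of 0.0045. Of 9 tested mesenchymal markers 2 were higher, VIM (0.21) and AXL (0.55), and 2 lower, CD44 (−0.18) and KRT8 (−0.30), with a median of 0.042. Of 5 tested luminal markers 1 was lower, KRT19 (−0.52, adjusted p = 0.000127), and 0 were higher. Of 6 tested nuclear RNAs 1 was higher, MALAT1 (0.45, 0.00382), and of 13 mitochondrial mRNAs 0 were called. Of the 4 heat shock genes 1 was higher and 0 lower, with all 4 positive and a median of 0.23. Their part in the difference was not tested.

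Because the pairs differed this much, treatments were also compared with a term for the pair. At 46 °C against nanoparticles alone 1 member was then higher (1.29% of all genes) and 3 were lower (0.872%): CKS2, and PLK1, AURKA and CDC20 (−0.66 ± 0.16, adjusted p = 0.00663). At 50 °C 2 were lower (1.48%), CDC20 (−0.72 ± 0.16, 0.00187) and AURKA. From 50 to 54 °C 1 was higher (0.272%), CDC20 (0.85 ± 0.15, 0.000235), and from 46 to 54 °C 2 were (0.56%), CDC20 (0.79 ± 0.15, 0.000541) and PLK1.

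Within replicates 1 and 2 alone, the same 4 genes were called at 46 °C, 1 higher (1.16% of all genes) and 3 lower (0.897%): CKS2 (0.54), PLK1 (−0.79), AURKA (−0.63) and CDC20 (−0.81, adjusted p = 0.0137). Only AURKA was lower at 50 °C there (−0.56, adjusted p = 0.0123; 0.988% of all genes), with CDC20 at −0.58 (0.126). From 46 to 50 °C PLK1 (0.63, 0.046) and TPX2 (0.55, 0.0142) were higher (0.955%) and CKS2 (−0.53, 0.0463) was lower (0.889%). From 46 to 54 °C PLK1 (0.80), AURKA (0.53), CDC20 (0.92) and TPX2 (0.51) were higher (0.65%). Within replicates 3 and 4 CDC20 was higher from 50 to 54 °C (1.04, adjusted p = 0.0196; 0.0329% of all genes), and no other member was called in any comparison. CDC20 had −0.53 (0.563) at 46 °C and −0.88 (0.0614) at 50 °C there, PLK1 −0.60 (0.508) at 46 °C, and AURKA −0.19 (0.909) and −0.39 (0.485).

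TPX2, the AURKA activator, was chosen after its values were seen. It had 216, 262, 247 and 241 CPM in untreated cells, 295, 310, 263 and 243 CPM with nanoparticles alone, 244, 243, 252 and 225 CPM at 46 °C, 348, 363, 236 and 212 CPM at 50 °C, and 351, 340, 246 and 229 CPM at 54 °C. Replicates 3 and 4 stayed between 212 and 263 CPM in all 5 groups, while replicates 1 and 2 ranged from 216 to 363 CPM. Its laser effect was not called different between the pairs. Against nanoparticles alone, the effect in replicates 3 and 4 minus that in 1 and 2 was −0.41 ± 0.20 at 50 °C (edgeR's quasi-likelihood test, unadjusted p = 0.0442). It was 0.23 ± 0.20 at 46 °C and −0.28 ± 0.20 at 54 °C.

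Of 138 tested genes in 5 further lists, 39 of the kinetochore and passenger proteins, 17 of condensin and cohesin, 17 of the anaphase-promoting complex, 35 of spindle, motors and cytokinesis and 30 G2/M regulators, 1 was called in any of the 7 comparisons: the histone variant gene H2AFZ fell from 1168 ± 207 CPM at 46 °C to 843.8 ± 99.98 CPM at 50 °C (−0.47 ± 0.12, adjusted p = 0.0318), with overlapping groups. Between replicates, 12 of 39, 7 of 17, 1 of 17, 14 of 35 and 7 of 30 were lower in replicates 3 and 4 and 1 was higher, MAD1L1 of the checkpoint (0.57 ± 0.18, adjusted p = 0.0269). NDC80, the partner of NUF2, differed by −0.80 ± 0.099 (1.29e-09). The list medians ran from −0.38 for the spindle list to −0.055 for the anaphase-promoting complex.

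Arrest and G1 genes were set beside these results, and any link to CDC20, which was low at both 46 and 50 °C, was not tested. Of 22 tested, 3 were higher at 46 °C against nanoparticles alone and 0 lower, against 0.617% and 0.346% of all genes. The list median was 0.044, with 13 positive and 9 negative. CDKN1A, the p21 inhibitor of cyclin-dependent kinases, rose from 59.21 ± 7.95 to 105.6 ± 17.02 CPM (0.83 ± 0.19, adjusted p = 0.0104). GADD45A, which inhibits CDK1 complexes, rose by 1.03 ± 0.21 (0.00349) and GADD45B by 2.72 ± 0.20 (4.13e-15). At 50 °C GADD45A was the only one called (0.91 ± 0.21, 0.015), against 0.527% of all genes higher, and at 54 °C none was. Of 46 S phase genes 1 was called in any comparison, RFC3, a clamp loader subunit, at 46 °C (0.94 ± 0.23, 0.0238).

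Some counts could be shared between overlapping genes, since no source used here gives the strand setting of the counting. The 3' ends of CCNA2, KIF20A and FOXM1 overlap EXOSC9, CDC23 and ITFG2 on the other strand, which had 10634, 3798 and 433 counts in all. Of near-identical copies with a row in the table, KIF4B had 12 counts against 7358 for KIF4A and PTTG2 had 0 against 33198 for PTTG1.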

How the data were processed

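QuantSeq 3' mRNA libraries of 20 MDA-MB-231 samples in 5 groups of 4 were compared. The deposited values are estimated counts per gene, for which the submitters' processing notes name STAR, Salmon and the build GRCh38. Versions, annotation, strand setting and use of molecular identifiers: not given in the sources used here. They were rounded to whole numbers, and every deposited sample column was used (0 unused).

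Genes were kept with edgeR's filterByExpr (minimum count 10, minimum total 15), scaled by TMM and tested with edgeR 4.0.16's robust quasi-likelihood test in R 4.3.3, all 20 samples in 1 fit, and p-values were adjusted by Benjamini and Hochberg's method over 12149 genes, with calls at adjusted values under 0.05. CPM are TMM-scaled, and log2 CPM use a prior count of 2. Replicate pairs were compared in the same model with a term for the pair. DESeq2 1.42.0, limma 3.58.1 and other settings were alternatives. The scripts were tested on simulated data. Gene positions come from GENCODE, promoters from RefSeq's GRCh38.p14 table.

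The members and all gene lists were chosen with earlier results of these data known. Genes named are the called members (the 10 largest where more) and CCNB1, CDK1, CDC20, PLK1, AURKA, TOP2A, CENPF and UBE2C. Where none was called, the 3 of smallest p are named. Others, BUB1B among them, were chosen after their values were seen, as marked. Total counts of 2401180 to 7710977 per library limit precision through counting error.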

Additional observations from a re-analysis of the deposited data

Results flagged for a closer look

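In 10 of 215 groups of 4 libraries, over the 42 genes and summed levels, 1 library stood far from the other 3 relative to the group's range. The threshold flags about 1 in 20 groups when 4 independent values come from a normal distribution. Groups here hold replicate pairs that differ, and all genes share the same 20 libraries, so that rate need not apply. At 46 °C, CCNB2 (cyclin B2) had 64.3 CPM in replicate 3 against 99.3 to 103 in the others, AURKA had 195 CPM in replicate 4 against 231 to 236, and BUB3 had 235 CPM in replicate 2 against 190 to 192. With nanoparticles alone, AURKB had 137 CPM in replicate 3 against 184 to 190, BIRC5 286 CPM in replicate 2 against 226 to 233, and KIF23 111 CPM in replicate 2 against 137 to 141. In untreated cells, BUB1B had 30.1 CPM in replicate 3 against 46.1 to 49.2, BIRC5 276 CPM in replicate 2 against 220 to 229, KIF4A 94.5 CPM in replicate 1 against 77.8 to 80, and ECT2 139 CPM in replicate 2 against 82.1 to 90.6.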

How the results depend on the processing

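No median over the members moved by more than the SD used as its spread. For treatments this was the SD of member medians between libraries of a group, which contains the difference between replicate pairs. The bar was thus wide, and a shift within it does not show that a median was stable. With libraries scaled by their totals, the median at 50 °C against nanoparticles alone went from −0.088 to −0.201. Counts of called members were small and moved with the setting. At 46 °C against nanoparticles alone, 1 member was lower; it was 2 with no filter on low counts, 3 with the replicate block, the pair term or only replicates 1 and 2, and 0 with only replicates 3 and 4, while 0 higher became 1 with the block, the pair term or only replicates 1 and 2. At 50 °C, 1 lower became 2 with libraries scaled by their totals, no filter, the block or the pair term, and 0 with only replicates 3 and 4. For 50 against 46 °C, 0 lower became 2 with scaling by totals and 1 with only replicates 1 and 2, where 0 higher became 2. For 54 against 50 °C, 1 higher became 0 with only replicates 1 and 2. For 54 against 46 °C, 1 higher became 2 with DESeq2, no filter, the block, the pair term or only the 2 groups compared, 4 with only replicates 1 and 2, and 0 with only replicates 3 and 4. Leaving out 1 library gave 0 to 1 lower at 46 °C and 0 to 1 at 50 °C; leaving out 1 replicate number gave 23 to 28 lower between replicate pairs against 35. With only replicates 1 and 2, HMMR changed sign between nanoparticles alone and untreated (0.16) and KIF23 at 54 °C (0.10). The cause was not tested in these cases, apart from the fewer samples where libraries were left out.

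Deviations from group means were weakly correlated by replicate pair, and not more by single number. Same-numbered samples of different groups correlated at 0.0222 to 0.066 (mean 0.0421), with 0 of 40 over 0.1. Samples with the other number of the same replicate pair correlated at −0.00586 to 0.0724 (mean 0.041). Samples of different replicate pairs correlated at −0.0795 to −0.00539 (mean −0.0415). Of 20 samples, 9 correlated best with their own number. Under the block PLK1 had −0.69, CKS2 0.47 and AURKA −0.40 at 46 °C. Scaling by totals shifted the median of all genes by −0.12 at 50 °C against nanoparticles alone and by −0.17 against 46 °C, and turned the sign of the member medians at 46 °C (0.0087), at 54 °C (−0.013) and for 54 against 46 °C (−0.050). Beside the count of 0 for nanoparticles alone, 0 members and 479 of all genes had an unadjusted p under 0.05. Counts, 4 libraries a group and the difference between replicates limit what could be called.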
